A study of Mus musculus with 2 samples.

Results

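A list of 31 genes of fatty acid oxidation was followed across the cell types of the newborn mouse heart and between its ventricular and atrial heart muscle cells. The list is mainly mitochondrial, but it includes Acaa1a, a peroxisomal thiolase, and Acsl3, which serves lipid droplets and the endoplasmic reticulum. The genes were listed by function, with earlier results of these data known. All 31 were present among the 27999 features of both deposited count matrices. They comprise 4 genes of fatty acid activation, 4 of the carnitine shuttle, 15 of beta oxidation, 3 of electron transfer and 5 that control the pathway or hydrolyse its thioesters.

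The samples were whole hearts of mice at postnatal day 0 on a C57BL6+ICR background, and the labels name no treatment or mutation. Hearts were minced and digested with trypsin for 30 minutes at 37 °C in 6 fractions, and the cells were profiled with 10x Genomics 3' chemistry, which counts the ends of polyadenylated transcripts. The labels name 1 biological replicate run as technical replicates 1 and 2, and do not say how many hearts went into it. Both libraries therefore come from 1 biological sample and no test between animals was possible. The main values are given for both technical replicates, and 95% intervals cover counting error only.

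Fatty acids enter oxidation as acyl-CoA thioesters made by the Acsl synthetases. Long chains cross the mitochondrial inner membrane as carnitine esters, are shortened step by step in the matrix by dehydrogenases, hydratases and thiolases, and pass their electrons to the respiratory chain through the electron transfer flavoprotein. The heart draws on glucose and lactate before birth and turns to fatty acids after it, so the newborn heart is sampled while that change is under way.

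Barcodes with at least 500 detected genes and under 0.5% globin counts were kept, 4596 of 5888 in replicate 1 and 4005 of 6047 in replicate 2, with median depths of 5877.5 and 6074 counts. The libraries shared 31 barcodes among those kept. Cell classes were gated on marker genes. Heart muscle cells carried at least 1% of their nuclear-encoded, non-globin counts in 8 sarcomere and calcium-handling markers, and the other classes under 0.5%, with 56 of 8601 kept barcodes between these limits. This gave 5333 cardiomyocytes, 1180 fibroblasts, 791 vascular endothelial cells, 244 smooth muscle cells, 230 pericytes, 153 macrophages and 140 endocardial cells, while 453 barcodes stayed unassigned. The 8 cardiomyocyte markers summed to 22157 CPM in cardiomyocytes. Levels in CPM are a gene's counts summed over the cells of a class and scaled to one common total of all counts. Mitochondrially encoded transcripts took a median of 36.9% of a cardiomyocyte's counts and 3.16 to 5.34% in the other compared classes, which lowers every nuclear gene of cardiomyocytes on the CPM scale, by 0.56 to 0.59 on the log2 scale against the other classes. Ratios without mitochondrial and globin counts in the total are therefore given where they change a direction.

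Cardiomyocytes held more fatty acid oxidation transcript than any other class. The 31 genes summed to 5236 CPM in cardiomyocytes (5202 and 5274 in replicates 1 and 2), against 2010.3 CPM in pericytes, the next class (2007 and 2014), a ratio of 2.60 (95% counting interval 2.49 to 2.72). Smooth muscle followed with 1792 CPM, macrophages with 1591, fibroblasts with 1568, vascular endothelium with 1366 and endocardium with 1264 CPM. The 2 replicates never overlapped between cardiomyocytes and another class. The ratio to pericytes was 3.90 without mitochondrial and globin counts.

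**Figure D1:**
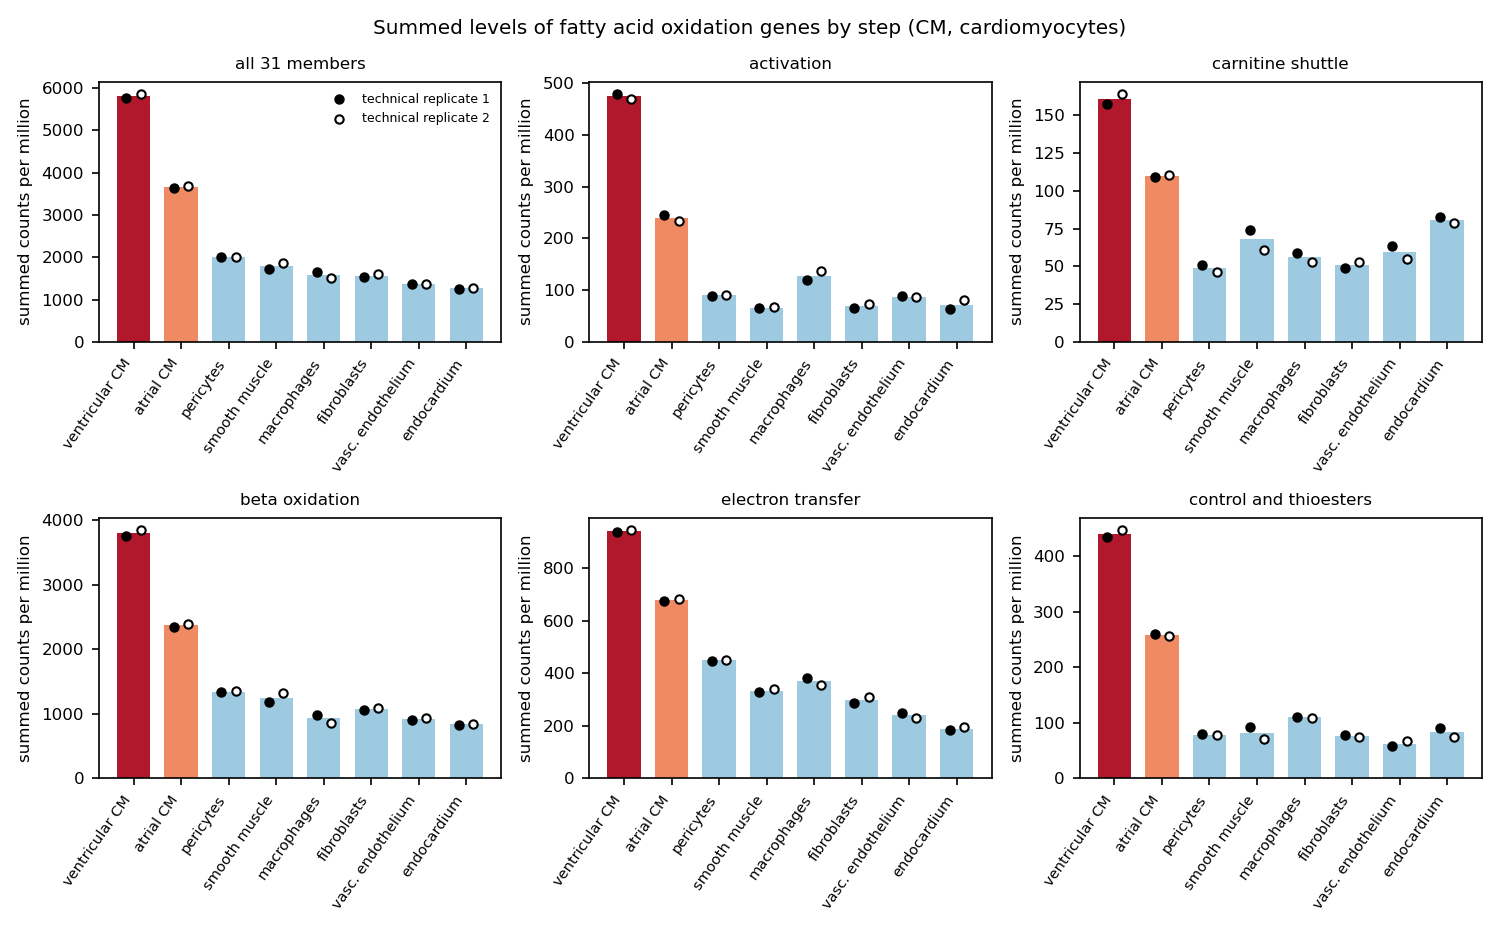
Summed CPM (vertical axes, from 0) of all 31 genes and of each step, in ventricular and atrial cardiomyocytes (red and orange bars) and 6 other classes (blue bars). Bars are both technical replicates together and dots are each replicate. Ventricular cardiomyocytes lead every panel, with 5811 CPM for all 31 genes, and atrial cardiomyocytes come second in every panel, with 3660.2 CPM.

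Gene by gene, 24 of the 31 were highest in cardiomyocytes. The share of all genes highest there was not counted, so this number has no background to be read against. A size rule asked for a level at least 2 times that of each other class in both replicates, and 25 members were abundant enough to be judged, with a mean of at least 20 CPM over the 7 classes. That mean includes cardiomyocytes, so a gene could be judged through its level there. Acsl1, at 13.1 to 24.9 CPM in the other 6 classes, and Slc25a20, at 9.75 to 21.8 CPM, were near or under the limit outside cardiomyocytes. In cardiomyocytes 13 of these 25 passed, where 3.71% of all 6472 judged genes did. With no such filter 16 of the 31 members passed, beside 3.66% of all genes. In each of the other 6 classes 0 of 25 passed, where 0.773% of all judged genes did in fibroblasts, 1.27% in vascular endothelium, 1.95% in endocardium, 0.943% in smooth muscle, 1% in pericytes and 3.58% in macrophages. The 13 were Acsl1, Slc25a20, Acadvl, Acadl, Hadha, Hadhb, Eci1, Decr1, Acaa2, Etfa, Etfdh, Acot2 and Acot13. Set against single classes, the median ratio of the 27 or 28 members judged ran from 2.995 over smooth muscle to 4.40 over vascular endothelium, beside 0.642 and 0.602 for all judged genes. Without mitochondrial and globin counts these became 4.45 and 6.54, beside 0.954 and 0.896. Leaving out barcodes over 20% mitochondrial counts moved the ratio of cardiomyocytes to the next class to 7.81 for Acsl1, 5.24 for Eci1, 1.32 for Eci2, 0.702 for Acaa1a, 2.37 for Etfb, 12.05 for Pdk4 and 4.72 for Acot13, each by over 1.5 times from the values below.

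Among the activating enzymes, 1 synthetase stood far above the others in its contrast. Acsl1, the main long-chain acyl-CoA synthetase of heart muscle (chromosome 8, 46471037 to 46536051 on the plus strand, GRCm38), had 354 CPM in cardiomyocytes (357 and 351), against 24.9 CPM in vascular endothelium (24.96 and 24.79), a ratio of 14.2 (12.5 to 16.3). Its level was 24.4 CPM or less in each of the other 5 classes. Acsl5, a synthetase of mitochondria and endoplasmic reticulum best known from gut and liver, ran the other way. It had 6.09 CPM in cardiomyocytes (6.70 and 5.41), against 73.3 CPM in macrophages (78.3 and 66.95), a ratio of 0.0831, or 0.125 without mitochondrial and globin counts. Acsl3, which serves lipid droplets and the endoplasmic reticulum, was 47.7 CPM in cardiomyocytes and 23.2 CPM in smooth muscle. Acsl4, which prefers arachidonic acid, stayed near 3.32 to 17.1 CPM in every class, at 12.6 CPM in cardiomyocytes.

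The make-up of the synthetase family therefore differed between classes. Of all Acsl1, Acsl3, Acsl4 and Acsl5 counts, Acsl1 made up 84.2% in cardiomyocytes (83.7 and 84.7% in the replicates), against 28.5% in vascular endothelium, 19.9% in fibroblasts and 14.4% in macrophages. Acsl5 made up 1.45% in cardiomyocytes, against 57.7% in macrophages (65.5 and 49.0%), 48.1% in vascular endothelium and 33.3% in fibroblasts. Such shares compare the same genes between classes; they are not ratios of molecules between genes.

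The carnitine shuttle had a small summed contrast, with 148 CPM in cardiomyocytes and 81.1 CPM in endocardium, a ratio of 1.82 (1.48 to 2.26). This sum holds almost no counts of Cpt1b, the muscle isoform of the entry enzyme. Its low count cannot be read as a low level, so the contrast of the whole step is uncertain. Cpt1a, the liver-type carnitine palmitoyltransferase of the outer membrane and the regulated entry step, was nearly even. It had 32.8 CPM in cardiomyocytes (33.4 and 32.2), against 42.7 CPM in endocardium (47.9 and 36.4), with an interval of 0.578 to 1.05 for the ratio, and cardiomyocytes came first at a ratio of 1.13 without mitochondrial and globin counts. Its partners on the inner membrane were higher in cardiomyocytes. Cpt2 had 54.5 CPM in cardiomyocytes (53.0 and 56.1), against 18.2 CPM in smooth muscle (17.4 and 19.2). Slc25a20, the carnitine-acylcarnitine carrier, had 59.96 CPM in cardiomyocytes (58.8 and 61.2), against 21.8 CPM in endocardium (24.0 and 19.2).

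Cpt1b, the muscle isoform of the entry enzyme (chromosome 15, 89416405 to 89425863 on the minus strand), was hardly counted. It had 13 counts over all barcodes, 8 of them in cardiomyocytes, so Cpt1a supplied 99.3% of the Cpt1a and Cpt1b counts there (98.6 to 99.7%). In GENCODE vM21, 81.4% of the exon bases of Cpt1b also lie in the read-through gene model Gm44502 on the same strand, and reads from such bases cannot be assigned to 1 gene. The annotation the authors counted with is not given in the sources used here and Gm44502 was not analysed here, so the part of this overlap in the low count was not tested, and the count cannot be read as a low level of the Cpt1b transcript.

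Beta oxidation gave 3413 CPM in cardiomyocytes, against 1344 CPM in pericytes, a ratio of 2.54 (2.41 to 2.68), and 7 of its 15 genes passed the size rule in cardiomyocytes. The long-chain enzymes led. Hadhb and Hadha, the beta and alpha subunits of the trifunctional protein that carries out the later reactions on long chains, had 468 CPM (459 and 479) and 389.9 CPM (387 and 393) in cardiomyocytes, against 86.8 and 112 CPM in pericytes, ratios of 5.397 (4.38 to 6.72) and 3.48 (2.89 to 4.22). Acadvl and Acadl, the very-long-chain and long-chain acyl-CoA dehydrogenases, had 236 and 423 CPM in cardiomyocytes, against 57.5 and 117 CPM in pericytes, ratios of 4.11 and 3.61. Both trifunctional subunits and both dehydrogenases were higher in cardiomyocytes in each replicate.

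Hadha and Hadhb lie head to head on chromosome 5, Hadha from 30118304 to 30155162 on the minus strand and Hadhb from 30155248 to 30184593 on the plus strand. The 85 bases between their GENCODE starts are shown because both subunit genes begin at their edges in that annotation. The letters were cut from the RefSeq start window of Hadhb (GRCm38.p6, chr5:30155163-30155247, plus strand). RefSeq itself may place the starts elsewhere. Capitals mark the letters GGGCGG, searched on both strands.
Hadha-Hadhb: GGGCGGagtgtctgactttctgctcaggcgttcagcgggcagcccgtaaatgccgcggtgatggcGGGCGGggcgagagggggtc
The stretch is 69.4% G plus C and holds GGGCGG at 2 places. That motif occurs in 18 of the 27 RefSeq start windows of 300 bases found for 26 members (66.7%), and in 35.7% of all 32851 windows. It was searched besides the planned motifs that follow, and the part of G plus C content in this difference was not tested. TNAAGGTCA, the extended response element of oestrogen-related receptors, searched on both strands, was in 0 of the 27 member windows and in 1.28% of all windows. This says only that these letters were not in those windows.

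The shorter-chain dehydrogenases had a smaller contrast. Acadm, the medium-chain enzyme, had 401 CPM in cardiomyocytes (412 and 389), against 199 CPM in smooth muscle (196 and 202), a ratio of 2.01 with the replicates on either side of 2. Within smooth muscle Acadm stood at 184 CPM in 131 cells rich in elastin transcript and 217 CPM in the other 113, so both kinds of smooth muscle were above the 104 CPM of pericytes and the 59.4 CPM of fibroblasts. Acads, the short-chain enzyme, had 84.3 CPM in cardiomyocytes (81.5 and 87.4), against 64.8 CPM in macrophages (76.1 and 50.2), with an interval of 0.992 to 1.74 for the ratio. Acadsb, which handles short branched chains from isoleucine, was highest in endocardium, with 29.8 CPM in cardiomyocytes (29.6 and 30.1), against 81.1 CPM in endocardium (87.8 and 72.9), a ratio of 0.368, or 0.543 without mitochondrial and globin counts.

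The later reactions showed the same mixture. Decr1, a reductase for polyunsaturated chains, had 118 CPM in cardiomyocytes, against 50.7 CPM in fibroblasts (ratio 2.33). Acaa2, the matrix thiolase, had 397 CPM in cardiomyocytes (389.8 and 405), against 133 CPM in pericytes (131 and 134). Echs1, the enoyl-CoA hydratase, and Hadh, the hydroxyacyl-CoA dehydrogenase of shorter chains, had ratios of 1.66 and 1.78 over their next classes. Acat1, the acetoacetyl-CoA thiolase that also serves ketone bodies and isoleucine, was nearly even, with 220.4 CPM in cardiomyocytes (219 and 222) against 190.1 CPM in pericytes (208 and 169), a ratio of 1.16, or 1.74 without mitochondrial and globin counts.

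Enzyme pairs that share a reaction split by class. Eci1, the mitochondrial enoyl-CoA isomerase, had 163 CPM in cardiomyocytes, against 48.9 CPM in smooth muscle (ratio 3.34). Eci2, an isomerase of mitochondria and peroxisomes, had 97.3 CPM in cardiomyocytes (96.0 and 98.7), against 124 CPM in pericytes (100.4 and 151); its ratio was 0.786, and 1.18 without mitochondrial and globin counts. Eci1 was 62.7% of both genes' counts in cardiomyocytes and 20.6 to 37.8% in the other 6 classes. Acaa1a, the peroxisomal thiolase, was also lower in cardiomyocytes, at 35.8 CPM (34.4 and 37.4), against 83.1 CPM in macrophages (80.5 and 86.5), a ratio of 0.431, or 0.647 without mitochondrial and globin counts. Acaa2 made up 91.7% of the counts of both thiolases in cardiomyocytes, against 70.1% in pericytes, 64.6% in fibroblasts and 43.3% in macrophages. Acaa1a has a near-identical copy, Acaa1b, so its own values are uncertain.

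All 3 electron transfer genes were highest in cardiomyocytes, at 862 CPM together against 448 CPM in pericytes, a ratio of 1.92 (1.75 to 2.11). The 2 subunits of the flavoprotein had unlike ratios. Etfa, the alpha subunit, had 333 CPM in cardiomyocytes (332 and 334), against 111 CPM in smooth muscle (114 and 108). Etfb, the beta subunit, had 422 CPM in cardiomyocytes (421 and 423), against 312 CPM in pericytes (301 and 324), a ratio of only 1.35 (1.21 to 1.51), and 266 CPM in macrophages. Etfdh, the oxidoreductase that hands the electrons to ubiquinone, had 107 CPM in cardiomyocytes, against 33.1 CPM in pericytes (ratio 3.23).

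The control and thioester genes had 394 CPM in cardiomyocytes against 110.0 CPM in macrophages, a ratio of 3.58 (2.91 to 4.46). Pdk4, the kinase that switches off pyruvate dehydrogenase, was close to silent outside heart muscle. It had 68.0 CPM in cardiomyocytes (66.9 and 69.2), against 3.67 CPM in macrophages, where it rested on 3 counts, a ratio of 18.5 with a lower counting bound of 6.34. Its mean over the 7 classes was under the 20 CPM needed for the size rule. Acot2, a mitochondrial thioesterase, and Acot13 had 105 and 166 CPM in cardiomyocytes, against 36.1 CPM in pericytes and 61.1 CPM in macrophages. Acot2 has a near-identical copy, Acot1, so the split of reads between the pair is uncertain, and its class call was lost when barcodes over 20% mitochondrial counts were left out (ratio 2.04). Mlycd, which removes the Cpt1 inhibitor malonyl-CoA, had 50.5 CPM in cardiomyocytes, against 23.2 CPM in smooth muscle. Ucp3, an uncoupling protein of muscle, had 155 counts in cardiomyocytes and 7 in the other 6 classes together.

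**Figure D2:**
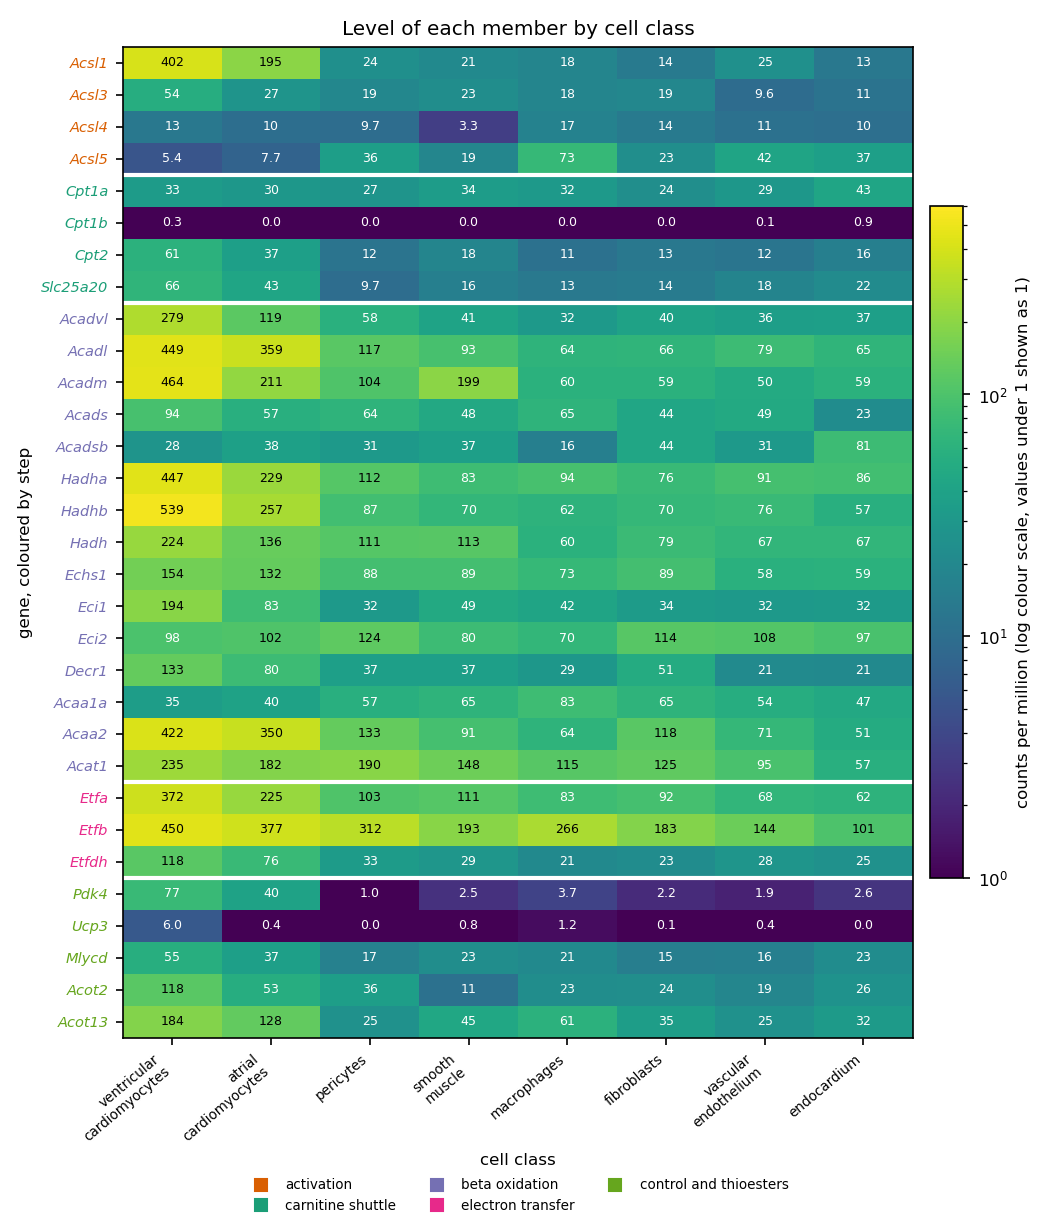
CPM of each of the 31 genes (rows, coloured by step) in each class (columns), both replicates together, on a log colour scale. The brightest cell is Hadhb in ventricular cardiomyocytes at 539 CPM, Acsl5 and Acaa1a are darker in both cardiomyocyte columns than in macrophages, and Acadsb is darker there than in endocardium.

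Free RNA from broken heart muscle cells can reach other droplets, so the members were set beside 6 cardiomyocyte genes that took no part in the gate (Tnni3, Myl3, Mybpc3, Cox6a2, Csrp3 and Mb). These 6 were present in the other classes at 2.79 to 7.12% of their cardiomyocyte level. Of 27 members compared in each class, 24 to 26 lay above the range of those genes. The share of all genes above that range was not counted, so this does not set the members apart from other genes. The median judged gene was itself lower in cardiomyocytes than in each of these classes, with ratios from 0.558 over pericytes to 0.689 over macrophages. The exceptions were Acsl1, Pdk4 and, in smooth muscle, Acot2. Acsl1 was at 3.69 to 6.89% of its cardiomyocyte level in 5 classes and at 7.03% in vascular endothelium, above the 3.31 to 4.74% there, and Pdk4 was at 1.43 to 5.39% in all 6 classes. Acot2 was at 10.3% in smooth muscle, and its interval of 5.48 to 17.6% reached the range. At this depth Acsl1 outside vascular endothelium and Pdk4 outside cardiomyocytes could not be told from that background.

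**Figure D3:**
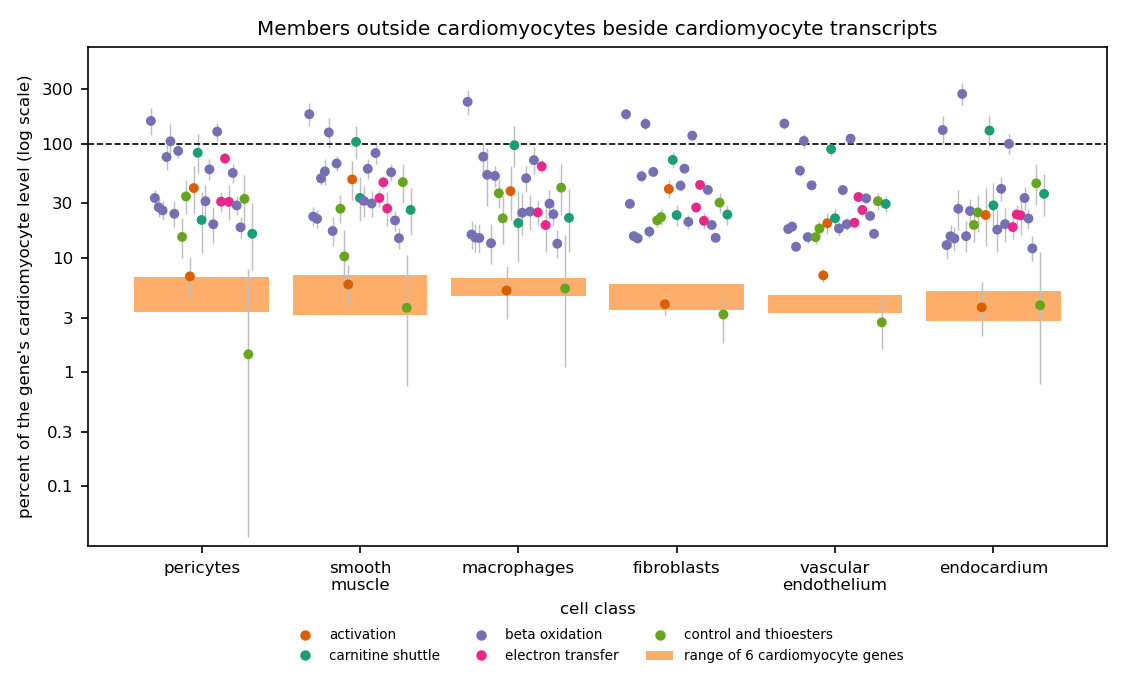
Level of each of 27 members in 6 classes as a percentage of its cardiomyocyte level (vertical log axis), with 95% counting intervals. Orange boxes span 6 cardiomyocyte genes held out of the gate, at 2.79 to 7.12%, and Acsl1 and Pdk4 lie near or within them, except Acsl1 in vascular endothelium, which lies above at 7.03%.

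Heart muscle cells were then split by chamber. Ventricular cells had a share of Myl2 in Myl2 plus Myl7 counts over 0.8 and atrial cells under 0.2, with at least 10 such counts, which gave 3559 ventricular cells (1906 and 1653) and 1324 atrial cells (708 and 616), while 117 lay between. The 138 cells with a share of 0.8 to 0.9 and the 44 with 0.1 to 0.2 were just inside the limits, 30 with 0.7 to 0.8 and 18 with 0.2 to 0.3 just outside. Genes not used for the split followed it: Irx4 had 54.2 CPM in ventricular and 1.39 CPM in atrial cells, and Nr2f2 had 1.30 CPM in ventricular and 91.4 CPM in atrial cells. Of the 12 such check genes only Fhl2, a listed ventricular gene, was near even at 1.17. Ventricular cells had a median of 6582 counts, 40.8% of them mitochondrial, and atrial cells 5636.5 counts, 21.7% mitochondrial. Vascular endothelial markers summed to 127 CPM in ventricular and 442 CPM in atrial cells, and pericyte markers to 192 CPM in ventricular and 51.5 CPM in atrial cells. The part of these differences in the results below was not tested, apart from the values given by mitochondrial share.

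Ventricular cardiomyocytes carried more of the pathway than atrial ones. The 31 genes summed to 5811 CPM in ventricular cells (5763 and 5865), against 3660.2 CPM in atrial cells (3643 and 3679), a ratio of 1.59 (1.57 to 1.61), and of 2.04 without mitochondrial and globin counts. Of 27 members with a mean of at least 20 CPM, 15 were at least 1.5 times higher in ventricular cells in both replicates, where 3.09% of all 4820 judged genes were, and 0 were at least 1.5 times lower, where 20.6% of all judged genes were. Without mitochondrial and globin counts, which moves the median ratio of all genes by 0.36 on the log2 scale, 22 members were higher and 0 lower, beside 6.69% higher and 7.93% lower of all genes. The median ratio was 1.63 over these 27 members and 0.767 over all judged genes.

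Both abundant synthetases were higher in the ventricle. Acsl1 had 402 CPM in ventricular cells (404 and 401), against 195 CPM in atrial cells (199.9 and 189.6), a ratio of 2.06 (1.96 to 2.18). Acsl3 had 54.1 CPM in ventricular cells (56.5 and 51.5), against 27.1 CPM in atrial cells (26.6 and 27.8), a ratio of 1.99. Acsl1 remained at 81.3% of synthetase counts in atrial cells, close to the 84.7% of ventricular cells.

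In the shuttle, the inner-membrane proteins were higher in the ventricle. Cpt1a was near even, and the other entry enzyme, Cpt1b, could not be judged. Cpt2 had 60.8 CPM in ventricular cells (58.4 and 63.5), against 37.3 CPM in atrial cells (38.4 and 36.1), and Slc25a20 had 66.2 CPM in ventricular cells (64.7 and 67.8), against 42.7 CPM in atrial cells (41.3 and 44.3). Cpt1a had 33.4 CPM in ventricular cells (34.1 and 32.5), against 29.8 CPM in atrial cells (29.5 and 30.1), with an interval of 0.967 to 1.30 for the ratio, which was 1.44 without mitochondrial and globin counts and turned to 0.886 without barcodes over 20% mitochondrial counts. The calls of Cpt2 (ratio 1.63) and Slc25a20 (1.55) were near the limit and were lost with each cell given equal weight.

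Of the 15 beta oxidation genes, 8 passed the 1.5-fold rule as higher in ventricular cells. Eci1 had 194 CPM in ventricular cells (192 and 197), against 82.6 CPM in atrial cells (82.4 and 82.8), a ratio of 2.35 (2.17 to 2.56). Acadvl had 279 CPM in ventricular cells (273 and 286), against 119 CPM in atrial cells (119 and 119), a ratio of 2.35 (2.19 to 2.51). Acadm had 464 CPM in ventricular cells (474 and 454), against 211 CPM in atrial cells (219.6 and 202), a ratio of 2.20 (2.09 to 2.32). Replicates of the chambers did not overlap for any of these genes. Hadhb and Hadha had 539 and 447 CPM in ventricular cells, against 257 and 229 CPM in atrial cells, ratios of 2.098 and 1.96. Acads, Decr1 and Hadh had ratios of 1.67, 1.66 and 1.65, and Acads stood just past the limit in replicate 2, at 1.503. Without barcodes over 20% mitochondrial counts the ratios of Eci1, Acads and Hadh were 4.91, 2.88 and 2.62.

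The other 7 beta oxidation genes missed the 1.5-fold rule, but all of them except Acadsb passed it as higher without barcodes over 20% mitochondrial counts, and Acadl, Acaa2 and Acat1 also passed it without mitochondrial and globin counts in the total. Acadl, whose enzyme overlaps with Acadvl in substrate length, had 449 CPM in ventricular cells (441 and 458), against 359 CPM in atrial cells (361 and 358), a ratio of 1.25 (1.198 to 1.302). Acaa2, Acat1 and Echs1 had ratios of 1.21, 1.29 and 1.17, with intervals above 1, and of 2.14, 2.07 and 1.95 without barcodes over 20% mitochondrial counts. Acadl thus made up 34.9% of the counts of the 4 straight-chain acyl-CoA dehydrogenases in ventricular cells and 48.2% in atrial cells. Eci2 had a ratio of 0.963, Acaa1a of 0.867 and Acadsb of 0.733. For Eci2 and Acaa1a the direction turned, to 1.24 and 1.12 without mitochondrial and globin counts and to 1.67 and 1.93 without barcodes over 20% mitochondrial counts, while Acadsb was at 0.943 and 0.740. Acadsb had 27.5 CPM in ventricular cells (26.1 and 29.1), against 37.5 CPM in atrial cells (41.3 and 33.5), and passed the 1.5-fold rule as lower in replicate 1 alone. Eci1 was 66.4% of isomerase counts in ventricular cells and 44.7% in atrial cells.

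Etfa had 372 CPM in ventricular cells (369 and 375), against 225 CPM in atrial cells (229 and 221), a ratio of 1.65 (1.57 to 1.74). Etfb had 450.2 CPM in ventricular cells (449 and 452), against 377 CPM in atrial cells (378 and 376), a ratio of 1.19 (1.15 to 1.24). The order of the subunits turned without barcodes over 20% mitochondrial counts, where the ratio was 2.225 for Etfa and 2.499 for Etfb. Etfdh, with 118 CPM in ventricular and 76.1 CPM in atrial cells, was above 1.5 in replicate 1 (1.76) and below it in replicate 2 (1.38).

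Pdk4 had 77.1 CPM in ventricular cells (76.3 and 78.1), against 39.9 CPM in atrial cells (38.4 and 41.6), a ratio of 1.93 (1.71 to 2.18). Among the 4 pyruvate dehydrogenase kinases it held 28.5% of counts in ventricular cells and 16.7% in atrial cells, while Pdk1 and Pdk2 themselves had ventricular over atrial ratios of 1.10 and 0.996, or 1.41 and 1.28 without mitochondrial and globin counts. Acot2 had 118 CPM in ventricular cells (115 and 121), against 53.3 CPM in atrial cells (53.6 and 52.9), a ratio of 2.21. Ucp3 had 147 counts in ventricular and 3 counts in atrial cells, a ratio of 15.7 with a counting interval of 5.26 to 76.9. Its atrial level was 6.38% of the ventricular one, within the 2.31 to 10.6% at which the ventricular check genes other than Fhl2 appeared in atrial cells. It was too scarce, at 5.97 CPM in ventricular cells, for the size rule.

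**Figure D4:**
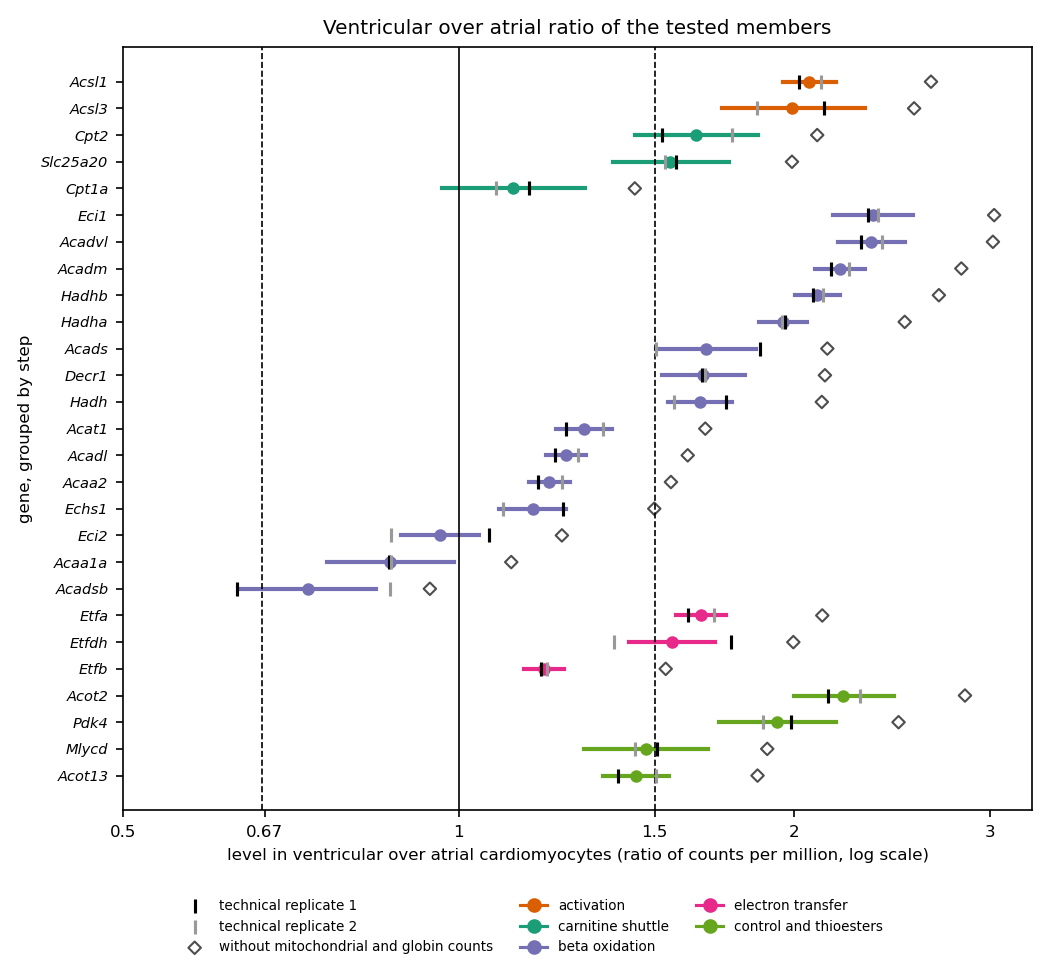
Ventricular over atrial ratio of CPM (horizontal log axis) for the 27 judged members, grouped by step. Dots and bars are the ratio over both replicates with its 95% counting interval, ticks the ratio in each replicate and diamonds the ratio without mitochondrial and globin counts; dashed lines mark 1.5-fold. The ratios run from 0.733 for Acadsb to 2.35 for Eci1, and the diamonds all lie to the right of the dots.

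The chamber difference was also visible cell by cell at equal depth. After each cell was thinned to 2000 counts, which left out 19 ventricular and 21 atrial cells, the median cell held 11 counts of the 31 genes in the ventricle and 7 in the atrium, against 2 to 4 in the other 6 compared classes. The interquartile range was 8 to 14 counts in ventricular and 5 to 9 in atrial cells. Acsl1 was detected in 52.2% of thinned ventricular cells (50.5 to 53.9%) and 30.4% of atrial cells (27.9 to 32.97%), against 2.502% of fibroblasts, and in 83.5%, 60.7% and 7.80% of them before thinning. Acadl was detected in 56.8% of ventricular, 48.3% of atrial and 12.7% of fibroblast cells after thinning. Pdk4 was detected in 14.1% of thinned ventricular and 6.98% of atrial cells, and in 0.345% of fibroblasts.

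The members did not move together with the mitochondrial share of a barcode. Ventricular cells with 40 to 60% mitochondrial counts (1675 cells) were set beside those under 10% (279 cells), in CPM of the counts that were neither mitochondrial nor globin. Of 26 members with at least 20 counts in the band under 10%, 7 were at least 1.5 times higher in the 40 to 60% band in both replicates, where 27.5% of all 5188 genes so filtered were, and 6 were at least 1.5 times lower, where 12.4% of those genes were. Among genes so filtered, the share of members that was higher was no larger than that of all genes. The share that was lower was larger, but it rests on 6 genes, and whether it differs from that of all genes was not tested. The median ratio was 1.035 over the 26 members and 1.057 over all genes. The higher ones were Acsl1, Acsl3, Acadsb, Hadha, Hadhb, Pdk4 and Acot2, and the lower ones Eci1, Eci2, Acaa1a, Acaa2, Etfb and Acot13. Acsl1 stood at 870.3 CPM in the 40 to 60% band and 223 CPM under 10%, a ratio of 3.91 (3.71 and 4.20 in the replicates). This filter leaves out genes that are scarce under 10%, also those that are higher in the 40 to 60% band. Cpt1a, with 17 counts under 10%, was too scarce there to be judged and had a ratio of 3.89. Acsl4, Ucp3 and Acsl5, with 6, 7 and 6 counts there, had ratios of 4.70, 2.01 and 1.14. Cpt1b, with 1 count there, had a ratio of 0.542. Acot13 stood at 244 CPM in the 40 to 60% band and 678 CPM under 10%, a ratio of 0.360 (0.353 and 0.370). Atrial cells had ratios of 3.57 for Acsl1, 0.592 for Etfb and 0.354 for Acot13, from 61 cells in the upper and 105 in the lower band. Cells are not replicates, and these bands describe 1 biological sample.

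Because mitochondrial share also differs between the chambers, the chamber ratio was also taken within the band of 20 to 40%, a choice made after seeing the data, which held 1276 ventricular and 709 atrial cells. The sum of the 31 genes was 1.675 times higher in ventricular cells there, 15 members were higher and 0 lower, beside 3.74% and 13.1% of all genes, with Cpt2 and Slc25a20 lost and Acot13 and Etfb gained. Without barcodes over 20% mitochondrial counts, which left 403 ventricular and 541 atrial cells, 23 members were higher and 0 lower, beside 10.3% and 16.3% of all genes, with Acsl1 (1.42) and Pdk4 (1.38) lost. The 10 gained there were Acaa1a, Acaa2, Acadl, Acat1, Acot13, Echs1, Eci2, Etfb, Etfdh and Mlycd, with ratios from 1.67 for Eci2 to 3.19 for Acot13, which was 1.44 in all ventricular and atrial cells.

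**Figure D5:**
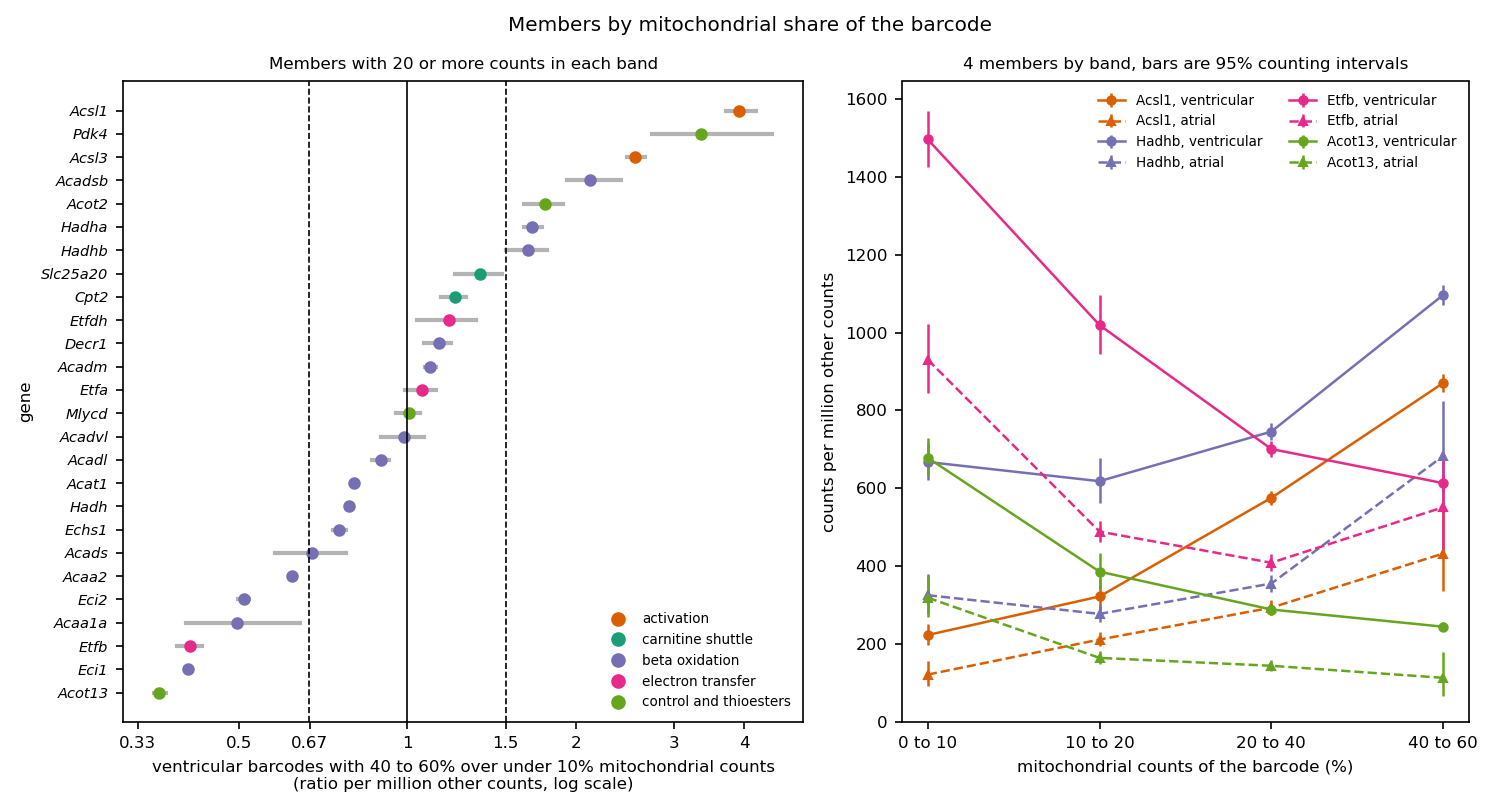
Left, ratio of each of 26 members in ventricular barcodes with 40 to 60% over those with under 10% mitochondrial counts, in CPM of other counts (log axis), with grey bars joining the technical replicates. Right, 4 members picked after their values were seen, by mitochondrial band in ventricular (solid) and atrial (dashed) cells, with 95% counting intervals; Acsl1 climbs to 870.3 and Etfb drops to 613 CPM in the highest ventricular band.

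Neighbouring pathways were put through the same rules. Of all judged genes 3.71% passed the class rule in cardiomyocytes, 3.09% were higher in ventricular cells and 20.6% lower. With lists this short, 0 or 1 passing the class rule or higher in ventricular cells cannot be told from these shares. This holds for all lists below. Of 5 judged peroxisomal oxidation genes 0 passed the class rule in cardiomyocytes and 0 were higher in ventricular cells, while Scp2, a peroxisomal thiolase and lipid carrier, was lower, at 123 CPM in ventricular and 269 CPM in atrial cells. Of 11 genes of oxidative phosphorylation, 5 passed the class rule, and 1 was higher in ventricular cells (Sdha, a subunit of succinate dehydrogenase, ratio 1.90) and 0 lower. Of 14 judged glycolysis genes 2 passed the class rule (Eno3 and Pfkm, the muscle forms of enolase and phosphofructokinase), and of 15 judged between chambers 1 was higher in ventricular cells (Hk2, a hexokinase) and 0 lower. The summed ventricular over atrial ratio was 1.59 for the 31 members, 1.202 for oxidative phosphorylation, 1.05 for glycolysis and 0.711 for peroxisomal oxidation. Without mitochondrial and globin counts these ratios were 2.04, 1.55, 1.35 and 0.913. The median ratio of all judged genes was 0.767, and 0.986 without those counts, so the peroxisomal sum lay near the typical gene. Scp2 alone held 123 of the 350 CPM of this sum in ventricular cells and 269 of the 492 CPM in atrial cells. The ratio of the list without Scp2 was not taken, so the sum does not describe its other genes.

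Of 8 further mitochondrial acyl-CoA genes judged between chambers, 3 were higher in ventricular cells and 0 lower. Crat, the carnitine acetyltransferase, had 180.0 CPM in ventricular and 103 CPM in atrial cells and was the 1 of 6 that passed the class rule, 4.02 times above the next class. Acot1, the copy of Acot2, had 58.8 CPM in ventricular and 17.0 CPM in atrial cells. Hibch, of valine breakdown, had a ratio of 1.88. Of 7 judged genes around pyruvate dehydrogenase and uncoupling, Pdp1, a phosphatase that reactivates pyruvate dehydrogenase, was higher (2.06) and Ucp2 lower (0.468), and 3 of 5 passed the class rule (Pdk1, Pdha1 and Pdhb). Of 5 proliferation genes 0 passed either rule.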

How the data were processed

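The authors deposited 1 matrix of whole-number counts per gene and barcode for each technical replicate; they used Cell Ranger (version 2.1.0) and the mm10 build, per the submitters' processing notes. The labels do not say whether a count is a unique molecule or a read, so the word count is used. Totals were 34668956 and 33871582 counts; 53 barcodes occur in both libraries. Gene IDs were paired with symbols for 27645 of 27999 features. Counts were summed per class and replicate with Python 3.11.15, numpy 2.4.6, scipy 1.17.1 and pandas 2.3.3. Levels have exact Poisson, ratios conditional binomial and shares Clopper-Pearson 95% intervals. With 1 biological sample no test was made. The 1.5-fold chamber rule was checked on simulated counts with changes past its limit, and the 2-fold class rule was not. Cardiomyocytes needed 5 of 8 markers and no other list with 3 or more markers and 0.5 of its genes; other classes needed 3 markers and the highest fraction of their list. Marker genes were listed by hand, the limits of the gate were set after seeing the marker shares, and the members and all lists were chosen with earlier results of these data known. All 31 members are named; other lists name at most 3 genes by size of ratio, with Pdk1, Pdk2 and the passing Pdha1 and Pdhb named besides. No doublet caller was run: the gate leaves out mixed barcodes (315 of the unassigned ones carried cardiomyocyte markers), and leaving out the top 2% by counts was an alternative. The epicardial class (54 cells) was under the minimum of 50 cells per replicate and was not compared.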

Additional observations from a re-analysis of the deposited data

How the results depend on the processing

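The 13 members called in cardiomyocytes and the 15 higher in ventricular cells were recounted under alternatives, which gave 13 to 19 and 13 to 23 members. The summed ratio of cardiomyocytes to the next class was 3.90 without mitochondrial and globin counts, 4.56 with median-of-ratios size factors, 2.65 with cells weighted equally, 2.915 without barcodes over 20% mitochondrial counts, 2.63 with at least 1000 genes and 3.39 under 0.1% globin, where 3 classes were left. The summed ventricular over atrial ratio was 2.04, 2.12, 1.64 and 2.29 under the first 4 of these, 1.62 with at least 30 Myl2 plus Myl7 counts and 1.675 within 20 to 40% mitochondrial counts, an alternative chosen after seeing the data. Without barcodes over 20% mitochondrial counts, 23 members were higher in ventricular cells. Leaving out 1 technical replicate gave 0 to 1 members lower in ventricular cells (Acadsb, without replicate 2), 14 called in cardiomyocytes and 16 to 17 higher. The ventricular call of Acads was lost with 1 more marker gene, at least 1000 genes, under 0.1% globin and Myl2 shares over 0.9 and under 0.1. The causes were not tested. The Cpt1a share stayed between 99.04 and 99.51%. For single members, 148 of 290 class ratios and 236 of 377 chamber ratios moved by less than the spread between replicates. These counts include the settings that leave out 1 technical replicate. A chamber ratio from 1 replicate stays within that spread almost by construction, so the counts overstate how stable the ratios were. Depth limits Cpt1b, Ucp3, Acsl4 and Pdk4 outside cardiomyocytes. No paired analysis was possible because all samples belong to 1 group.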

Other observations

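The 54 epicardial cells (19 and 35 in the replicates) belonged to no comparison. Acaa2, the matrix thiolase, had 344 CPM there (271 and 396), beside 397 CPM in cardiomyocytes and 133 CPM in pericytes, and the 31 genes summed to 1768 CPM. Etfb had 211 CPM (196 and 222).

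Markers of brown adipocytes, another tissue rich in fatty acid oxidation, were checked in the same cells. Ucp1 and Adipoq had 0 counts in cardiomyocytes, and Plin1 had 24. Cidea, a lipid droplet protein, had 34.3 CPM in ventricular and 14.7 CPM in atrial cells.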
